A study of Mus musculus with 8 samples.

Results

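The respiratory chain genes described here are the nuclear genes for the subunits of mitochondrial complexes I to V, measured in the liver of male mice of 2 strains. They were chosen by name: genes of the array called Nduf followed by a, b, c, s or v and a number (complex I), Sdha to Sdhd (complex II), Uqcr (complex III), Cox4 to Cox8 with their isoforms (complex IV) and Atp5 (complex V). This gave 85 of the 34836 gene names on the array, 37 of them in complex I, 4 in complex II, 8 in complex III, 18 in complex IV and 18 in complex V. The name rule also took in 4 genes that are not subunits: Atp5s and Atp5sl, which current RefSeq annotation lists as Dmac2l and Dmac2, the pseudogene Atp5c1-ps, and Ndufa4l2, a relative of Ndufa4. It left out Cyc1 and Ndufab1, subunits of complexes III and I with other names, and Ndufa4, now known as a subunit of complex IV, was counted under complex I by its name.

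The study compared NZO mice (New Zealand Obese, labelled NZO/HiBomDife), which become obese and diabetic, with lean B6 mice (C57BL/6). All animals were male, 6 weeks old by the labels, and both strains were fed the same high-fat diet with 45% fat. There were 4 mice of each strain, each with 1 liver sample on 1 one-colour Agilent array, so strain is the only factor that differs by design. The mouse number in the labels names a mouse within its strain.

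The respiratory chain passes electrons from NADH (complex I) and succinate (complex II) through coenzyme Q, complex III and cytochrome c to oxygen at complex IV, and the proton gradient built on the way drives ATP synthesis by complex V. All complexes except complex II are built from subunits of both the nuclear and the mitochondrial genome. In liver the chain takes up the electrons released by fatty acid oxidation, and several complex IV subunits exist as separate isoforms for liver, heart and skeletal muscle, lung or testis.

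Levels are given as log2 of the processed signal minus the 75th percentile of the same array, for the brightest probe of each gene. A difference is NZO minus B6 on this scale. Of the 85 genes, 82 were well above background on all 8 arrays. The other 3 belonged to complex IV: the testis isoforms Cox7b2 and Cox8c were not well above background on any array, and the heart and skeletal muscle isoform Cox8b was above it in 3 NZO and 3 B6 mice, too few in either strain for the test. In a whole liver sample, fewer cells of a type and less RNA per cell cannot be told apart.

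Most respiratory chain genes had similar levels in both strains. With limma and Benjamini-Hochberg adjustment over 20137 genes, 3 of the 82 genes were higher in NZO at an adjusted p of 0.05 (Atp5f1, Ndufb8 and Ndufa12) and 1 was lower (Cox7a1). This is 3.66% of the genes higher and 1.22% lower, where 7.35% of all genes tested were higher and 7.43% lower. With the thresholds of the study's methods (unadjusted p of 0.05 and a log2 difference of 0.7), Atp5f1 was higher and Cox7a1 lower, against a background of 5.24% higher and 6.62% lower. The values of the strains did not overlap for 4 genes with NZO above B6 (4.88%, background 11.9%) and 2 genes with NZO below B6 (2.44%, background 10.5%), which were the genes called plus Ndufa9 and Ndufa6. At an unadjusted p of 0.05, 8.54% of the genes passed, beside 28.3% of all genes.

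The arrays also put a bound on the difference for most genes, as read by the brightest probe of each. The 95% interval of the log2 difference lay within 0.7 in either direction for 76 of the 82 genes (92.7%, beside 55.0% of all genes tested) and within 0.5 for 67 genes. The 6 genes with wider or shifted intervals were Atp5f1, Ndufb8, Cox7a1, Cox6a2, Cox6b2 and Atp5s. The standard error had a median of 0.11 for the respiratory chain genes and 0.15 for all genes. The median difference was 0.11 with 62 of the 82 genes above 0, beside 0.03 with 53.3% of all genes, but this small shift was -0.0048 with quantile normalization and -0.12 in the deposited unscaled table, where the median of all genes was -0.15.

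**Figure D1:**
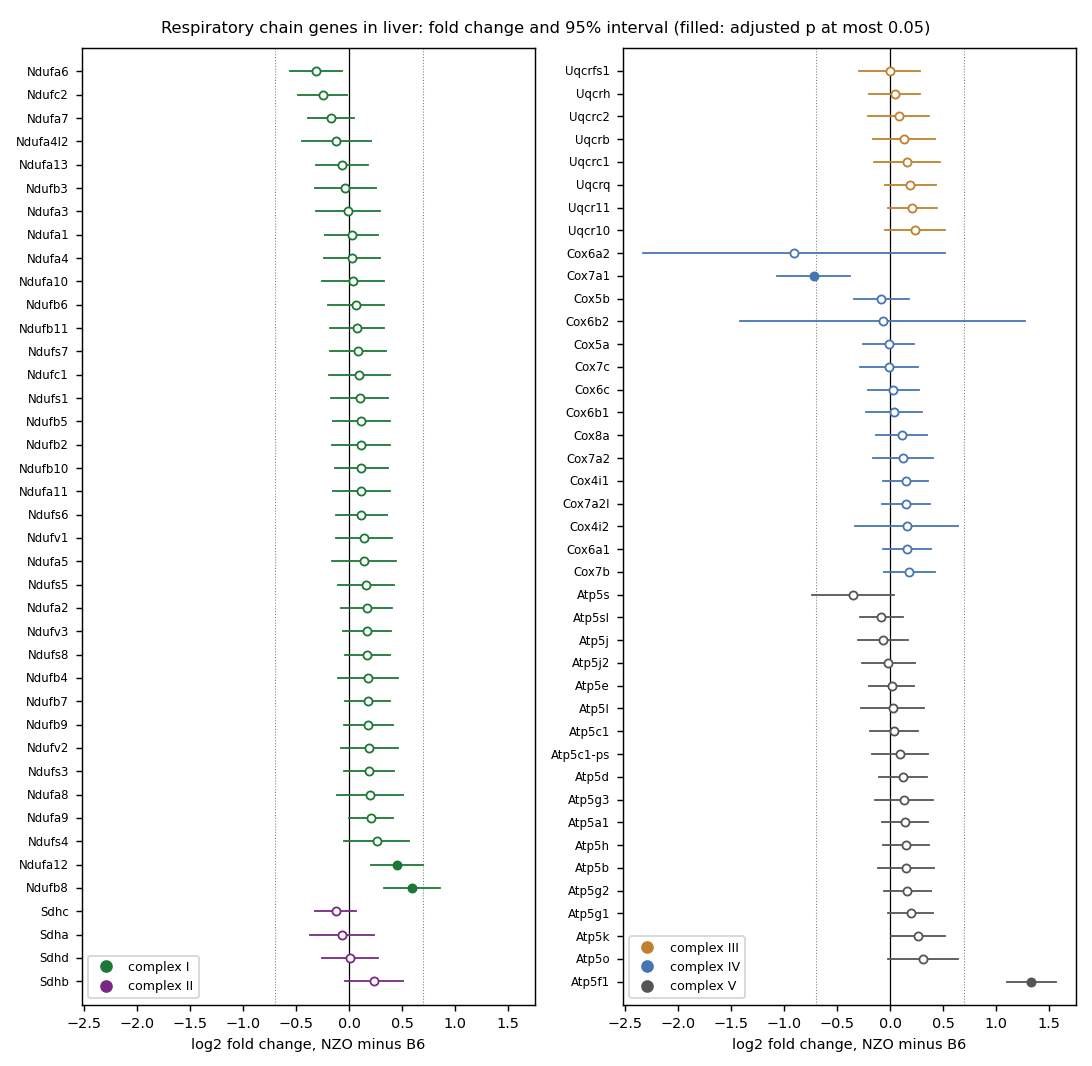
Difference in log2 signal between NZO and B6 liver (x axis, NZO minus B6) for 81 of the 82 respiratory chain genes above background, grouped by complex. Points are the fitted differences with 95% intervals, filled where the adjusted p is at most 0.05, and dotted lines mark 0.7 in either direction. Nearly all points lie close to 0, Atp5f1 stands apart at 1.33, and the wide intervals are those of Cox6a2 and Cox6b2. The median over the 82 genes is 0.11, and -0.0048 with quantile normalization.

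The 82 genes shared part of their variation from mouse to mouse. As a median over the genes, NZO mouse 003 lay 0.22 above the mean of the 8 mice, NZO mouse 011 at 0.08, NZO mouse 007 at 0.01 and NZO mouse 009 at -0.10. The B6 mice lay at 0.05 (mouse 011), -0.04 (mouse 009), -0.05 (mouse 015) and -0.17 (mouse 010). The strains therefore overlapped, with NZO mouse 009 below 3 of the 4 B6 mice. NZO mouse 003 had the highest value of all mice in 63 of the 82 genes (76.8%, beside 24.0% of all genes tested), and B6 mouse 010 the lowest in 48 (58.5%, beside 16.6%). Both arrays were on the same slide. Without NZO mouse 003 the median difference of the 82 genes was 0.06, and without B6 mouse 010 it was 0.07.

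**Figure D2:**
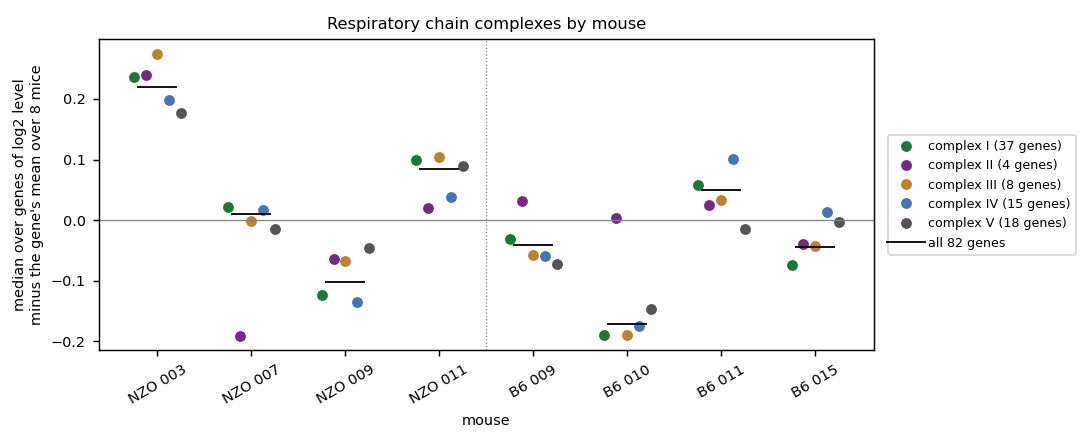
Median over the genes of each complex (coloured points) and over all 82 genes (black bars) of the log2 level minus the mean of the same gene over 8 mice, for each of the 4 NZO and 4 B6 mice. The complexes lie close together in most mice, NZO 003 is highest for every complex, and B6 010 is lowest except for complex II, whose lowest value is that of NZO 007.

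Scan day and slide were looked at as batches. Among the mice scanned on the first day (3 NZO, 2 B6) the median difference of the 82 genes was 0.17, and among those of the second day (1 NZO, 2 B6) it was 0.00. Slide 1 was the only slide that held both strains (1 NZO, 2 B6), and the median difference on it was 0.34. A fit with the slide as a fixed block therefore takes each difference between the strains from these mice alone.

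In complex I, which takes electrons from NADH, 2 of 37 genes rose in NZO and 0 fell at the adjusted threshold (limma). Of all genes, 7.35% were higher and 7.43% lower. The median difference of complex I was 0.11 (-0.12 in the deposited table). Ndufb8, an accessory subunit of the membrane arm, had levels of 7.67, 7.32, 7.22 and 7.41 in NZO mice 003, 007, 009 and 011 and of 6.83, 6.70, 6.90 and 6.82 in B6 mice 009, 010, 011 and 015. Every NZO value lay above every B6 value, and the difference was 0.59 ± 0.12 (SE, n = 4 mice per strain; 1.51-fold, adjusted p = 0.0106, limma). Ndufa12, an accessory subunit near the NADH side, had levels of 6.73, 6.52, 6.41 and 6.64 in NZO and 6.15, 5.99, 6.26 and 6.09 in B6, in the same order of mice. The strains were separate again, with a difference of 0.45 ± 0.11 (1.37-fold, limma adjusted p = 0.0234). Within slide 1 the differences were 0.91 for Ndufb8 and 0.69 for Ndufa12, on the first scan day 0.67 and 0.55, and on the second 0.46 and 0.32. With the slide as a fixed block the differences were again 0.91 and 0.69, since that fit rests on slide 1 alone (1 NZO and 2 B6 mice). Ndufa12 missed the threshold without NZO mouse 003 or 011 or without B6 mouse 009, 010 or 015 (differences of 0.40 to 0.46, limma adjusted p = 0.0555 to 0.0681).

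The lowest differences in complex I were those of Ndufa6, an accessory subunit of the matrix arm, and Ndufc2, of the membrane arm. Ndufa6 had levels of 6.23, 5.86, 5.91 and 6.02 in NZO and 6.25, 6.35, 6.26 and 6.42 in B6. NZO mouse 003 lay just below the lowest B6 mouse, and the difference of -0.31 ± 0.11 did not pass the adjusted threshold (limma adjusted p = 0.0954). Ndufc2 overlapped between the strains (-0.25 ± 0.10, limma adjusted p = 0.151). Both genes passed as lower with quantile normalization, with normexp background correction and in the deposited table. In that table Ndufb8 and Ndufa12 lost their calls as higher, with differences of 0.39 and 0.27 (limma adjusted p = 0.065 and 0.188). A group of 6 catalytic core subunits, among them those that carry the flavin and most of the iron-sulfur clusters (such as Ndufv1, Ndufs1 and Ndufs8), differed by 0.08 to 0.19, and their 95% intervals lay between -0.18 and 0.46. Ndufa4 differed by 0.03 ± 0.12, and the levels of Ndufa4l2, a gene known to respond to hypoxia, were between -0.04 and 0.39 in NZO and between 0.16 and 0.61 in B6.

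In complex II, succinate dehydrogenase, 0 of 4 genes passed the adjusted threshold in limma, and 0 passed at an unadjusted p of 0.05. Of all genes, 7.35% were higher and 7.43% lower at the adjusted threshold, and 28.3% passed unadjusted. Sdha, the flavoprotein, had levels of 6.15, 5.55, 5.84 and 5.86 in NZO and 5.92, 6.02, 5.90 and 5.83 in B6, and the highest and the lowest value both came from NZO mice. Its difference was -0.07 ± 0.13. The iron-sulfur protein Sdhb differed by 0.24 ± 0.12, the membrane anchors Sdhc by -0.13 ± 0.08 and Sdhd by 0.01 ± 0.11. By these brightest probes the strains overlapped for each. A further probe of Sdhb had NZO above B6 without overlap (0.29 ± 0.12, limma adjusted p = 0.155). The 95% intervals of all 4 genes lay within 0.7, and that of Sdhb, the farthest from 0, reached from -0.04 to 0.51.

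Complex III passes electrons from coenzyme Q to cytochrome c. In limma 0 of its 8 genes passed at the adjusted or the unadjusted threshold (all genes: 7.35% higher, 7.43% lower, 28.3% unadjusted). The differences ranged from -0.00 for Uqcrfs1, the Rieske iron-sulfur protein, to 0.24 ± 0.12 for Uqcr10 and 0.21 ± 0.10 for Uqcr11, 2 small subunits. The core proteins Uqcrc1 and Uqcrc2 differed by 0.16 ± 0.13 and 0.08 ± 0.13. By the brightest probes, the strains overlapped for all 8 genes. A further probe of Uqcr11 had NZO above B6 without overlap (0.26 ± 0.10, limma adjusted p = 0.145).

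In complex IV, cytochrome c oxidase, 15 of 18 genes were tested, 0 rose and 1 fell (limma, adjusted), beside 7.35% higher and 7.43% lower of all genes. The 10 isoforms used in most tissues were Cox4i1, Cox5a, Cox5b, Cox6a1, Cox6b1, Cox6c, Cox7a2, Cox7b, Cox7c and Cox8a. By their brightest probes they differed by between -0.08 and 0.18, and the intervals lay between -0.34 and 0.42. The largest were Cox7b (0.18 ± 0.10) and Cox6a1 (0.16 ± 0.10). They were followed by Cox4i1 (0.15 ± 0.09), Cox7a2 (0.12 ± 0.12), Cox8a (0.11 ± 0.10) and Cox6b1 (0.03 ± 0.12). For Cox7c the probes disagreed, and this bound holds for its brightest probe only (-0.01 ± 0.12). A further Cox7c probe had NZO below B6 without overlap (-1.52 ± 0.17, limma adjusted p = 0.000677). Another differed by 0.45 ± 0.21 (limma adjusted p = 0.204). Cox7a2l, which helps to join complexes III and IV into supercomplexes and carries a deletion in C57BL/6 mice that affects the protein, differed by 0.15 ± 0.10 in RNA.

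The gene that fell is an isoform of other tissues. Cox7a1, the heart and skeletal muscle isoform of subunit 7a, had levels of 1.00, 1.16, 0.62 and 0.69 in NZO and 1.72, 1.44, 1.76 and 1.44 in B6. All NZO mice were below all B6 mice, by 0.72 ± 0.15 (1.65-fold lower, adjusted p = 0.014, limma). The difference was -0.44 on slide 1, -0.67 on the first and -0.58 on the second scan day. With the slide as a fixed block it was also -0.44, since that fit rests on slide 1 alone (1 NZO and 2 B6 mice). Its counterpart in liver, Cox7a2, overlapped between the strains.

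Cox6a2, the heart and skeletal muscle isoform of subunit 6a, had levels of -3.05, -0.21, -2.69 and -2.93 in NZO and -1.60, -0.83, -0.99 and -1.84 in B6. NZO mouse 007 was the highest of all 8 mice and the other 3 NZO mice were the lowest. Over all mice the difference was -0.91 ± 0.62 (limma adjusted p = 0.385). Without NZO mouse 007 it was -1.58 (limma adjusted p = 0.0078), but leaving out the highest NZO mouse must widen it. Without any other single mouse it was between -1.08 and -0.63 (limma adjusted p = 0.377 to 0.597). With all mice kept, other processing gave smaller differences. The difference of Cox6a2 was -0.21 with normexp background correction and -0.57 in the deposited table (limma adjusted p = 0.63 and 0.295). Cox8b, the heart and skeletal muscle isoform of subunit 8, was highest in the same mouse (-1.15), followed by B6 mouse 010 (-2.64). Cox6b2, known from testis, was also highest in NZO mouse 007 (0.38), with the other NZO mice between -1.74 and -1.48 and the B6 mice between -2.02 and -0.31. Cox4i2, the lung isoform that responds to hypoxia, differed by 0.16 ± 0.21.

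Markers of skeletal muscle were also uneven between the mice. Of the 4 markers, 3 were tested (Acta1, Myh4 and Tnnt3) and 0 were called. These 3 entered the test only through B6, where they were above background in all 4 mice, beside 3, 3 and 1 of the NZO mice, while Ckm was above background in 1 NZO and 2 B6 mice. The summed level of the 4 markers was 4.15 in NZO mouse 007 and -2.88, -2.64 and -1.73 in NZO mice 003, 009 and 011. In B6 it was -1.34, 2.51, -0.06 and 0.49 in mice 009, 010, 011 and 015. Myh4, the fast myosin heavy chain, and Acta1, skeletal muscle actin, gave most of this signal in NZO mouse 007 (levels of 2.86 and 2.81), and neither was above background in NZO mouse 003. NZO mouse 007 and B6 mouse 010 had the highest muscle signal within their strain. Cox7a1 was highest in mouse 007 among the NZO mice (1.16), and among the B6 mice it was lowest in mouse 010 (1.44, and 1.44 in mouse 015). The heart muscle marker Myh6 was likewise highest in NZO mouse 007 (-0.46) and lowest in the other 3 NZO mice. The summed level of the 4 heart muscle markers was 0.53 in NZO mouse 007 and -1.24, -2.04 and -1.65 in NZO mice 003, 009 and 011. In B6 it was between -1.25 (mouse 011) and -0.88 (mouse 010), so NZO mouse 003 lay within the B6 range. The part of muscle RNA in the values of these isoforms was not tested; without NZO mouse 007 the difference of Cox7a1 was -0.82.

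**Figure D3:**
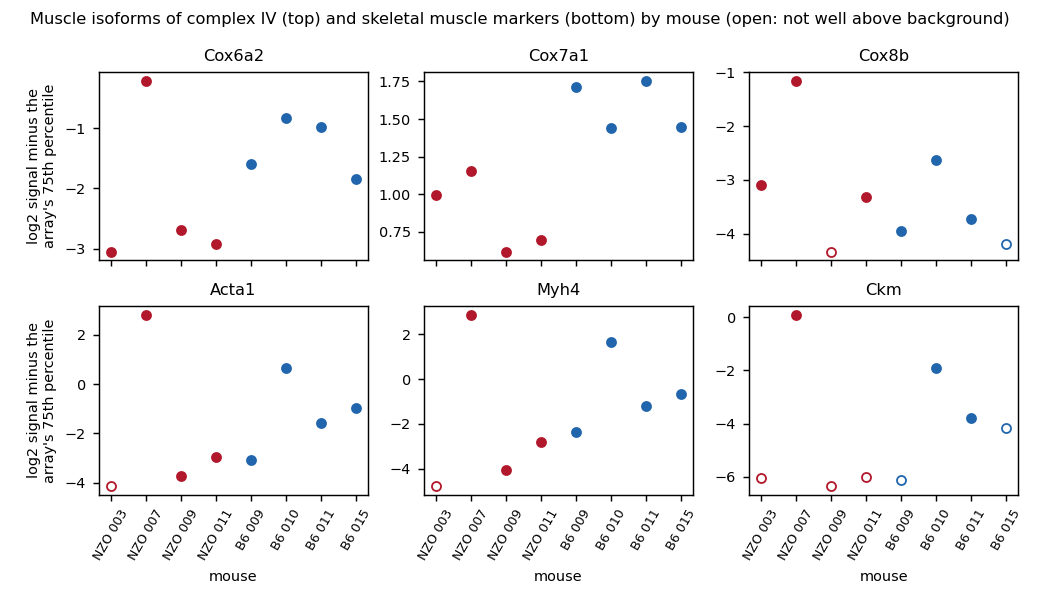
Log2 signal minus the 75th percentile of the array (y axis, a separate range in each panel) for 3 muscle isoforms of complex IV (top) and 3 skeletal muscle markers (bottom) in 4 NZO (red) and 4 B6 mice (blue). Open points were not well above background. NZO 007 is highest for every gene but Cox7a1, for which all B6 mice (1.44 to 1.76) lie above all NZO mice (0.62 to 1.16).

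In complex V, ATP synthase, 1 of 18 genes rose and 0 fell (limma, adjusted), beside 7.35% higher and 7.43% lower of all genes. Atp5f1 (Atp5pb in current annotation) encodes subunit b of the peripheral stalk, which holds the catalytic head in place. Its brighter probe had levels of 6.74, 6.40, 6.48 and 6.55 in NZO mice 003, 007, 009 and 011 and of 5.24, 5.12, 5.25 and 5.25 in B6 mice 009, 010, 011 and 015. The strains were far apart compared with the spread within them (SD 0.15 in NZO and 0.06 in B6), and the difference was 1.33 ± 0.10 (2.52-fold, adjusted p = 7.85e-05, limma). The difference was 1.56 on slide 1, 1.41 on the first and 1.16 on the second scan day. With the slide as a fixed block it was also 1.56, since that fit rests on slide 1 alone (1 NZO and 2 B6 mice).

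The second probe of Atp5f1 did not show this. The first probe stands for the gene because its mean over all 8 mice is higher, which rests on the NZO mice: in each B6 mouse the second probe gave the higher signal (5.72 to 5.78, beside 5.12 to 5.25). The second probe had levels of 5.90 ± 0.21 (SD, n = 4) in NZO and 5.75 ± 0.03 in B6, the strains overlapped, and the difference was 0.15 ± 0.12 (limma adjusted p = 0.45). Both probes have 60 bases on the minus strand of chromosome 3 (mm9, as in the file headers) and share 25 bases, chr3:105745817-105745841. Each probe has 35 bases that the other lacks, and 30 of them are shown for each because the probes differ there. The first lies at chr3:105745847-105745876 and the second at chr3:105745782-105745811.
Atp5f1, brighter probe, first 30 bases: gagagagttaaatgggaactagtctatgtg
Atp5f1, other probe, last 30 bases: aatgatcaaggtccacttagtggcttaacc
Averaged over both probes, Atp5f1 differed by 0.74. Whether the strains carry sequence variants under either probe was not looked up here, and such a variant could alter the signal of a probe in 1 strain.

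**Figure D4:**
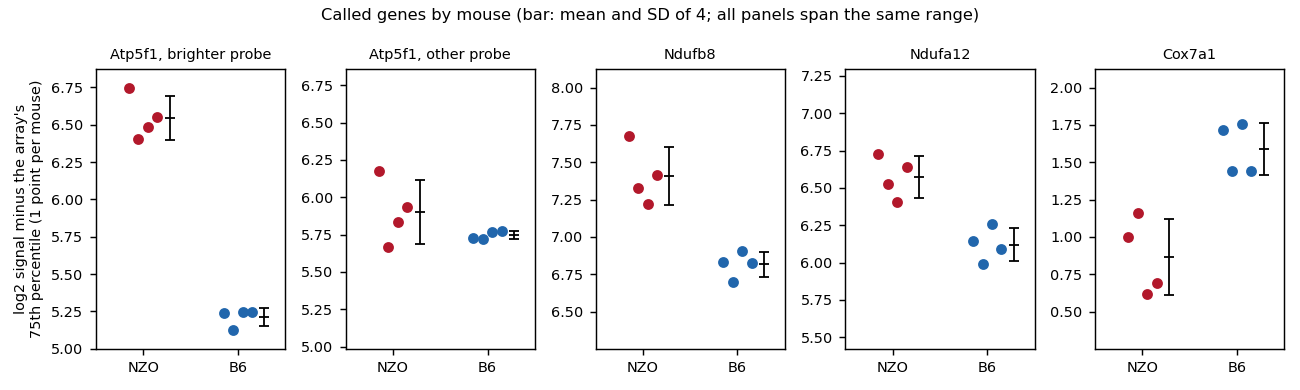
Log2 signal minus the 75th percentile of the array for each mouse (points; NZO red, B6 blue; bars are mean and SD of 4 mice) for the 2 probes of Atp5f1, for Ndufb8, Ndufa12 and Cox7a1, with the same span on every y axis. The strains are separate in every panel except that of the second Atp5f1 probe, where the NZO mice (mean 5.90) lie on both sides of the B6 mice (mean 5.75).

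None of the other ATP synthase genes passed the adjusted threshold. The 5 subunits of the head and central stalk (Atp5a1, Atp5b, Atp5c1, Atp5d and Atp5e) differed by 0.01 to 0.15, and the 3 genes for the c ring (Atp5g1, Atp5g2 and Atp5g3) by 0.13 to 0.19. Atp5o, the subunit that joins the peripheral stalk to the head, had levels of 5.64, 5.06, 5.38 and 5.58 in NZO and 5.07, 4.97, 5.14 and 5.24 in B6, and its difference of 0.31 ± 0.14 did not pass (limma adjusted p = 0.2). Only NZO mouse 007 lay within the range of the B6 mice. Without it Atp5o passed (0.43, limma adjusted p = 0.0448), but leaving out the lowest NZO mouse must widen the difference. Without any other single mouse it did not pass (differences of 0.24 to 0.36, limma adjusted p = 0.208 to 0.369). Atp5s (Dmac2l) and Atp5sl (Dmac2), which are not subunits, differed by -0.35 ± 0.17 and -0.08 ± 0.09. Atp5c1-ps shares sequence with Atp5c1, so its signal (difference 0.10 ± 0.12) may come from either.

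Of the 82 genes, 28 had more than 1 probe above background, and in 23 of them the differences of all probes lay within 0.25 of each other. The widest disagreement was in Cox7c, a small subunit of complex IV, followed by Atp5f1. Its brightest probe differed by -0.01 ± 0.12 with overlapping strains, while a further probe lay at 4.28 ± 0.32 (SD, n = 4) in NZO and 5.80 ± 0.17 in B6, a difference of -1.52 ± 0.17 (limma adjusted p = 0.000677). The third probe of Cox7c differed by 0.45 ± 0.21 (limma adjusted p = 0.204). The first 2 probes lie on the minus strand of chromosome 13 (mm9), and a 30-base stretch of each is shown, chr13:86186331-86186360 for the brightest and chr13:86184447-86184476 for the lower one.
Cox7c, brightest probe, first 30 bases: tgtagaaaggagagttaggtggtacggcca
Cox7c, probe lower in NZO, last 30 bases: taaactcttgaactcttatactagaaaaaa
Variants between the strains under the Cox7c probes were not looked up here. Ndufv3, a small subunit of complex I, was the other gene with a called further probe (0.50 ± 0.11, limma adjusted p = 0.0205), while its brightest probe differed by 0.17 ± 0.10.

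RefSeq promoters (GRCm38.p6, 250 bases before to 50 after the start) were at hand for 69 of the 85 genes, 75 promoters in all, and were searched on both strands for 4 motifs of factors known to drive respiratory chain genes. The NRF1 core CGCATGCG was in 12.0% of these promoters and in 1.87% of all 32851 promoters, the YY1 motif AAGATGGC in 16.0% and 2.75%, the ETS motif CCGGAAGT (GABPA) in 6.67% and 3.89%, and the ERR alpha motif CAAGGTCA in 5.33% and 1.56%. At least 1 of the 4 was in 36.0% of these promoters and in 9.56% of all. Of the genes called, Atp5f1 and Ndufb8 held a YY1 motif, and for Ndufa12 and Cox7a1 none of the 4 was found in this window. Shown are 170 bases before to 30 after the start. For Atp5f1, the largest rise by its brighter probe but not by its second, this is chr3:105959234-105959433 on the minus strand. For Cox7a1, the gene that fell, it is chr7:30184001-30184200 on the plus strand. Capitals mark the YY1 motif, here on the opposite strand.
Atp5f1 promoter: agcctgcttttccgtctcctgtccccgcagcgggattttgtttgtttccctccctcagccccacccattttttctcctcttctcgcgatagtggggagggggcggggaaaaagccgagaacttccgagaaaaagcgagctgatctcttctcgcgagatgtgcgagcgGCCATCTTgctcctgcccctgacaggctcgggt
Cox7a1 promoter: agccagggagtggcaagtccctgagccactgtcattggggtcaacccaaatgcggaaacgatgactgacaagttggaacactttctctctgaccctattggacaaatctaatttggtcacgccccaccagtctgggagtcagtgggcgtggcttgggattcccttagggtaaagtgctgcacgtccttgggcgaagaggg

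The 13 subunits made from mitochondrial DNA are partners of the nuclear subunits in complexes I, III, IV and V, and each was read by 1 probe. At the adjusted threshold 1 was higher in NZO and 4 were lower (limma), beside 7.35% higher and 7.43% lower of all genes. The number lower was 3 with arrays centred on the median, 4 with normexp and 5 with quantile normalization or in the deposited table. The 13 genes had a median difference of 0.02 that was -0.08 with quantile normalization and -0.22 in the deposited table. ND1, a core subunit of the membrane arm of complex I, had levels of 5.06, 4.73, 4.66 and 4.79 in NZO and 6.31, 6.10, 6.35 and 6.15 in B6. The strains were far apart, with a difference of -1.42 ± 0.12 (2.67-fold lower, limma adjusted p = 0.000123). ND2, another core subunit of the membrane arm, had levels of 7.90, 7.81, 7.61 and 7.69 in NZO and 8.67, 8.56, 8.75 and 8.55 in B6, again separate (-0.88 ± 0.10, limma adjusted p = 0.000701). ND5 (-0.51 ± 0.14) and ATP8 (-0.48 ± 0.10) were lower as well, with limma adjusted p of 0.0428 and 0.0126.

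ND6, the only subunit read from the light strand of mitochondrial DNA, was higher in NZO, with levels of 1.80, 2.07, 1.13 and 1.81 beside 0.59, 0.30, 0.77 and 1.08 in B6 (1.02 ± 0.23, limma adjusted p = 0.0219). NZO mouse 009 lay just above B6 mouse 015. ND6 missed the threshold without NZO mouse 003 or 011 or without B6 mouse 009, 010 or 011 (differences of 0.89 to 1.04, limma adjusted p = 0.0504 to 0.0617). It also missed it with no filter on dim probes (1.02, limma adjusted p = 0.0523) and with the mouse number as a block (0.79, limma adjusted p = 0.166). With the slide as a fixed block, which rests on slide 1 alone (1 NZO and 2 B6 mice), the difference was 1.11. COX1, COX2, COX3, CYTB, ATP6, ND3, ND4 and ND4L did not pass, with differences between -0.16 and 0.39. These transcripts are cut from long precursors. ATP6 and ATP8, whose reading frames overlap in one transcript, differed by 0.02 ± 0.09 and -0.48 ± 0.10. The files place 6 of the 13 probes (COX2, COX3, ATP6, ATP8, ND3 and ND4L) on chromosome 1, between 24619243 and 24621798 (mm9), where the nuclear genome holds a copy of this mitochondrial segment, so these probes cannot tell the copies apart. The ND1 and ND2 probes, placed on the mitochondrial genome at chrM:2898-2957 and chrM:4670-4729, are shown since they carry the largest decreases.
ND1 probe: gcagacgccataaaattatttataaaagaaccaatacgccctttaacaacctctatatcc
ND2 probe: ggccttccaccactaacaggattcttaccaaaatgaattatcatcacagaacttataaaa
Variants between the strains under these probes were not looked up here, and each gene was read by a single probe. The differences of ND1 were -1.07 on slide 1, -1.29 on the first and -1.59 on the second scan day.

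**Figure D5:**
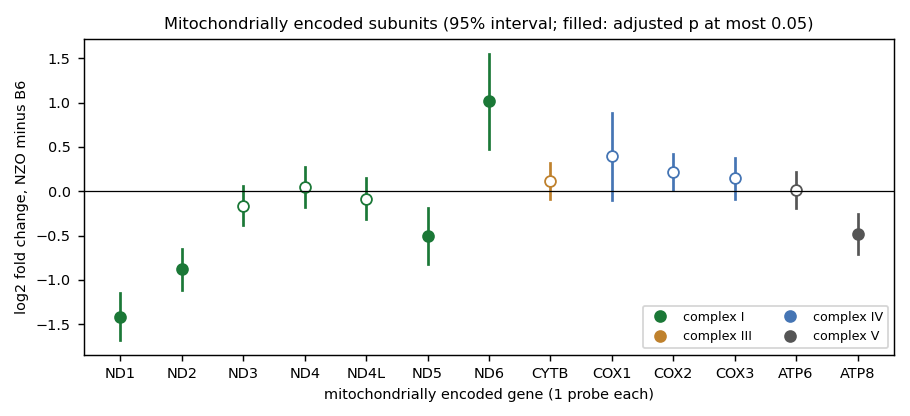
Difference in log2 signal between NZO and B6 liver (y axis, NZO minus B6, with 95% intervals, n = 4 mice per strain) for the 13 mitochondrially encoded subunits, filled where the adjusted p is at most 0.05. ND1, ND2, ND5 and ATP8 lie below 0 and ND6 above it, while the points of ND4, ND4L and ATP6 lie within 0.09 of 0. The median over the 13 genes is 0.02, and -0.08 with quantile normalization.

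In a list of electron carriers and enzymes that make or feed coenzyme Q, to which the subunits Cyc1 and Ndufab1 were added, 18 genes were tested and 6 were higher in NZO and 0 lower (limma, adjusted; 7.35% and 7.43% of all genes), with a median difference of 0.20. With quantile normalization these counts were 6 and 0, and they were 1 and 0 in the deposited table, with a median of -0.03. Gpd2, the mitochondrial glycerol-3-phosphate dehydrogenase that passes electrons from glycolysis to coenzyme Q, had levels of 2.49, 2.13, 2.50 and 2.11 in NZO and 1.28, 1.27, 1.27 and 1.28 in B6. All NZO mice lay above the B6 mice, which hardly differed (SD 0.01), and the difference was 1.03 ± 0.12 (2.05-fold, limma adjusted p = 0.000692). Coq4 and Coq5, 2 genes of coenzyme Q synthesis, were higher by 0.57 ± 0.09 and 0.57 ± 0.12 (limma adjusted p = 0.00321 and 0.0142). The other 3 were Cycs, cytochrome c (0.47 ± 0.10), Ndufab1, the acyl carrier subunit of complex I (0.47 ± 0.11), and Coq10a, a coenzyme Q binding protein (0.33 ± 0.09). Cyc1, the cytochrome of complex III, differed by 0.07 ± 0.13.

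Among 42 assembly factors tested, 6 were higher and 2 lower in NZO (limma, adjusted; 7.35% and 7.43% of all genes). The deposited table gave 1 higher and 3 lower. For complex IV, 18 of 20 genes were tested, 2 rose and 1 fell. Cox18, which inserts part of COX2 into the inner membrane, had levels of 2.27, 2.01, 2.07 and 2.11 in NZO and 1.31, 0.94, 1.19 and 1.13 in B6, with no overlap (0.98 ± 0.11, 1.97-fold, limma adjusted p = 0.000647). Sco2, a copper chaperone of COX2, was higher by 0.75 ± 0.13 (limma adjusted p = 0.0062), and Cox19, another copper protein, was lower by 0.53 ± 0.12 (limma adjusted p = 0.0178). For complex I, 2 of 13 genes rose, Ndufaf5 (0.49 ± 0.08) and Nubpl (0.40 ± 0.09), and 1 fell, Tmem126b (-0.36 ± 0.09). For complexes II and III, 7 of 10 genes were tested and 1 rose (Uqcc2, 0.41 ± 0.11), and for complex V 4 of 6 were tested and 1 rose, the ATP synthase inhibitor Atpif1 (0.48 ± 0.12).

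Of 19 regulators of mitochondrial gene expression, including the coactivator Ppargc1a, the transcription factors Nrf1, Gabpa, Esrra and Yy1 and the mitochondrial factor Tfam, 0 passed the adjusted threshold in limma and 1 passed at an unadjusted p of 0.05. This was Ppargc1b, a coactivator, which was above background in 1 of 4 NZO and 4 of 4 B6 mice and so entered the test only through B6, the strain where it was higher. Of 17 genes of the tricarboxylic acid cycle, which supplies NADH and succinate, 0 passed the adjusted threshold and 3 passed unadjusted, with a median difference of 0.06. A single gene of this cycle was lower with quantile normalization, with normexp and in the deposited table, with medians of -0.05, -0.02 and -0.17, and 2 regulators were lower in the deposited table. Over all genes tested, 7.35% were higher and 7.43% lower by the adjusted threshold, 28.3% passed unadjusted, and 2453 of 20137 were lower in the deposited table.

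Markers of other cell types were measured on the same arrays, where 7.35% of all genes tested were higher and 7.43% lower (limma, adjusted). Of 4 red blood cell markers, 2 were higher in NZO (Hba-a1 by 1.00 ± 0.22 and Alas2 by 0.90 ± 0.13, limma adjusted p = 0.0179 and 0.0021) and 0 lower, and their summed level, led by Hba-a1, ranged from 8.19 to 8.88 in NZO and from 7.28 to 7.70 in B6. Of 5 leukocyte markers, 2 were lower (Cd68 by 0.42 ± 0.11 and Itgax, which was above background in 2 of 4 NZO mice and entered the test only through B6, where it was higher) and 0 higher, with summed levels of 3.44 to 4.23 in NZO and 3.44 to 3.74 in B6, led by Cd3e in most mice. Of the adipocyte markers, Adipoq, Plin1 and Lep were not above background on any array, 1 of the 3 tested was higher (Car3, also a liver gene, 0.47 ± 0.09) and the summed level, led by Car3, was 9.14 to 9.33 in NZO and 8.68 to 8.91 in B6. Of the brown adipocyte markers, Ucp1, Cidea and Dio2 were not above background on any array, and of the exocrine pancreas markers 2 of 6 were tested and 0 called. With quantile normalization 1 red blood cell and 0 adipocyte markers were higher, and the deposited table had 1 red blood cell marker higher and 1 adipocyte and 3 leukocyte markers lower. The hepatocyte markers Alb, Ttr, Apoa1, Cps1 and Tat were above background on all arrays and 0 of 5 were called. Their summed level was 11.89 to 11.94 in NZO and 11.55 to 11.88 in B6, so the strains did not overlap. The part of these cells in the differences of the respiratory chain genes was not tested.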

How the data were processed

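Liver RNA of 8 mice was measured on one-colour Agilent arrays. The deposited intensity values came from Agilent Feature Extraction, version 11.0.1.1 in the headers and 9.1 in the processing notes of the submitters. The processed signal is background-subtracted array by array and not scaled across arrays. A further table, named as normalized by the authors, holds the raw median intensity (59305 of 59305 spots on each array, tolerance 0.01).

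Control and outlier spots were left out, the processed signal was taken as log2 and centred on its 75th percentile within an array. Probes well above background on all 4 arrays of a strain were kept (27618 of 55681), and the brightest probe stood for a gene. limma 3.58.1 in R 4.3.3 compared NZO with B6 without a block, with Benjamini-Hochberg adjustment over 20137 genes. Replicates were separate mice, and the number of arrays limits the precision. The study's methods name a t-test with Welch correction, which was run as an alternative, besides other normalizations, filters and probe choices, slide, scan day and mouse number as blocks, and leaving out each mouse. The gene lists were recomputed under each scaling, a check chosen after seeing the data. The fit was tested on simulated data. Member names were matched to RefSeq for 85 of 85 genes.

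Members and gene lists were chosen with earlier results of these data known. Named were members past the adjusted threshold with a log2 difference of 0.7, the 2 largest differences in each direction per complex, all of complex II, Cox7a2l and the tissue isoforms, members with probes called in opposite directions, and up to 3 called genes per list. Cox7c, Ndufv3, Ndufa9, ND5, ATP8, Cycs, Ndufab1, Coq10a, Cyc1, Ppargc1b and the other members with values were named after their values were seen. Mouse numbers do not pair the strains (correlation of deviations -0.26 for number 009 and 0.00 for number 011). A single gene is counted among the members but not reported here.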

Additional observations from a re-analysis of the deposited data

Results flagged for a closer look

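In 4 of 88 groups of 4 mice looked at for the genes named, 1 mouse lay far from the other 3, where chance gives about 1 in 20. Cox6a2 was at -0.21 in NZO mouse 007 and between -3.05 and -2.69 in the other NZO mice. Cox6b2 was at 0.38 in the same mouse and between -1.74 and -1.48 in the others, and the skeletal muscle markers were also highest in this mouse. The brighter Atp5f1 probe was at 5.12 (5.125) in B6 mouse 010 and between 5.24 and 5.25 in the other B6 mice, a gap that is small beside the difference between the strains. Uqcc2, an assembly factor of complex III, was at 4.43 in NZO mouse 009 and between 4.74 and 4.80 in the other NZO mice.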

How the results depend on the processing

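Counts are of respiratory chain genes called higher and lower (3 and 1 by the adjusted p, 1 and 1 by the thresholds of the methods). With the slide as a fixed block, differences rest on slide 1 alone (1 NZO and 2 B6 mice). Calls in that fit therefore cannot show whether the slide matters. By the adjusted p, 4 were lower with quantile normalization, 3 with normexp and 2 with the probe of smallest p. The deposited table gave 1 higher and 4 lower, and the slide as a fixed block 1 and 0. By the thresholds of the methods, 0 were lower with normexp, with the slide as a random block and with the scan day as a block, 2 were lower with the probe of smallest p, and 2 were higher with the slide as a fixed block. Leaving out 1 mouse gave 2 to 4 higher and 1 to 2 lower (2 without NZO mouse 003 or 007) by the adjusted p, and 0 to 2 lower by the thresholds (0 without NZO mouse 009 or 011 or B6 mouse 009 or 011), with a median of 0.06 to 0.17 over all members.

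The median of all members (0.11) was -0.0048 with quantile normalization, -0.12 in the deposited table and 0.34 with the slide as a fixed block. Complexes I to V (0.11, -0.03, 0.15, 0.03 and 0.12) stood at -0.0034, -0.15, 0.03, -0.02 and 0.0077 with quantile normalization, at 0.05, -0.08, 0.08, 0.0057 and 0.032 with normexp, at -0.12, -0.25, -0.0887, -0.15 and -0.14 in the deposited table and at 0.36, 0.25, 0.37, 0.27 and 0.26 with the slide as a fixed block. Leaving out 1 mouse gave 0.05 (without NZO mouse 003) to 0.18 for complex I, -0.11 (without NZO mouse 003) to 0.06 (without NZO mouse 007) for complex II, 0.08 (without NZO mouse 003) to 0.20 for complex III, -0.02 (without B6 mouse 010) to 0.13 (without B6 mouse 011) for complex IV and 0.07 (without NZO mouse 003) to 0.17 for complex V. The deposited table is not scaled, and its median over all genes was -0.15.

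With the mouse number as a replicate block, 0 members were higher and 0 lower by the adjusted p (53 and 67 of all genes), 3 were lower by the thresholds, and the medians were -0.0237 for complex I and -0.0057 for all members. Only 2 numbers occur in both strains, so this fit rests on few mice. Atp5f1 kept its direction and passed in 19 of 20 alternatives, with differences from 0.74 to 1.56. All of these used its brighter probe, alone or averaged with the second, so they do not show whether both probes would pass. The second probe alone differed by 0.15 ± 0.12 (limma adjusted p = 0.45). Ndufb8 passed in 17, Cox7a1 in 18 and Ndufa12 in 11 of 20, and none of these reversed.

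Over all genes, counts higher and lower by the adjusted p were 750 and 2453 in the deposited table and 357 and 591 with the slide as a fixed block, and 881 were lower with Welch correction (1481 and 1496 in the fit reported). By the thresholds they were 503 and 471 with normexp (1055 and 1333 reported), 467 were higher in the deposited table, and 878 were lower with the filter that asks for signal above background on every array. Where counts or medians moved, the cause was not tested.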
